A study of Mus musculus with 8 samples.

Results

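The extracellular matrix genes described here are 37 of the 28014 genes in the count table of this mouse study. They were chosen by name: every collagen alpha chain, laminin chain, fibrillin and fibulin, plus elastin (Eln), fibronectin (Fn1), Sparc, perlecan (Hspg2), nidogen 1 (Nid1) and agrin (Agrn), kept where the gene had at least 100 unique molecular identifiers (UMIs, single captured transcripts) over all cells. Of 67 genes with such names, 37 reached that minimum. The members nearest to it were Col9a1 with 106 UMIs, Col6a2 with 111 and Lama3 with 112, and the nearest genes left out were Col4a6 with 90 and Col12a1 with 85. By role, 15 members belong to the basement membrane, 8 are chains of fibrillar collagens, 7 are chains of other collagens, 5 belong to elastic fibres, and 2, Fn1 and Sparc, are adhesive or matricellular proteins.

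The study profiled CD31+ cells sorted from the aorta-gonad-mesonephros region (AGM) of E10.5 embryos, the site where blood stem cell precursors emerge from arterial endothelium through an endothelial-to-hematopoietic transition (EHT). The 5 wildtype (WT) libraries came from embryos labelled C57BL/6 with genotype WT. In the count table the cells of WT 5 carry a name start, Mf, that is not explained there, and those of WT 4 are bare barcodes. Both libraries were assigned to their samples by the deposited cell annotation. The paper abbreviates floxed Meis1 embryos as M f/f and calls their littermates without Cre WT. Whether WT 5 came from such embryos is not stated. The 3 Meis1 cKO libraries came from Meis1-flox/VE-Cre embryos, labelled Meis1-knockout, in which Cre is driven by the VE-cadherin promoter and removes exon 8 of Meis1 in endothelium and its progeny. Each library was a pool of 2 to 5 embryos of 1 genotype, all at E10.5 and sorted alike, so n counts pools rather than embryos. The authors' annotation divided the cells into venous endothelial clusters vEC_1 to vEC_4, arterial endothelial cells (aEC), pre-hemogenic endothelium (pre-HE), cells in EHT, erythro-myeloid progenitors (EMP), megakaryocytes and myeloid cells.

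The basement membrane is the thin sheet on which endothelial cells sit. It is built from a laminin network (trimers of alpha, beta and gamma chains) and a type IV collagen network, linked by nidogen and carrying the heparan sulfate proteoglycans perlecan, agrin and collagen XVIII. Outside it, fibronectin and fibrillar collagens form the interstitial matrix, and fibrillins, fibulins and elastin form microfibrils and elastic fibres of the arterial wall. Endothelial cells that leave the vessel lining to become blood cells detach from this sheet.

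The chains of type IV collagen are encoded by gene pairs arranged head to head, and the start regions of Col4a1 and Col4a2 are shown because both genes were well expressed in WT cells and their start regions overlap. In mm10 (RefSeq), Col4a1 spans chr8:11198423-11312889 on the minus strand and Col4a2 spans chr8:11312805-11449287 on the plus strand, so that the annotated genes overlap by 85 bases. The windows cover 250 bases before to 50 after the transcript start that the RefSeq promoter table uses, 11312826 for Col4a1, which lies inside the outer end of its gene span, and 11312805 for Col4a2. They are at chr8:11312777-11313076 (minus strand) for Col4a1 and chr8:11312555-11312854 (plus strand) for Col4a2. Capitals mark the 78 bases, chr8:11312777-11312854, that lie in both windows and are read on opposite strands.
Col4a1: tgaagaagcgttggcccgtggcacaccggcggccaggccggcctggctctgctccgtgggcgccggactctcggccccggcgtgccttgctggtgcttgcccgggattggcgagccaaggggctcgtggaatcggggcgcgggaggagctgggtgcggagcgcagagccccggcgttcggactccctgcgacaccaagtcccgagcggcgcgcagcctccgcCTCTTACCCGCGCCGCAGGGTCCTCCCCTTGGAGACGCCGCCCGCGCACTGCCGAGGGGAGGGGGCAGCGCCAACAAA
Col4a2: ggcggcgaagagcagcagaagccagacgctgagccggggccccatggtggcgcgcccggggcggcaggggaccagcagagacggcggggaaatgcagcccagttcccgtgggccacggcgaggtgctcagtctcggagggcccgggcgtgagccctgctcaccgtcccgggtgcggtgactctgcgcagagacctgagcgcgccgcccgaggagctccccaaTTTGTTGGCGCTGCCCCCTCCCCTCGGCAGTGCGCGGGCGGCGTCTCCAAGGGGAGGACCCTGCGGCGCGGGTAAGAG
Searched on both strands, the GC box core GGGCGG was in both windows and inside the shared stretch, against 35.7% of the 32851 promoter windows of the same length. CCAAT was in both windows and nowhere wholly inside the shared stretch, against 37.4% of all windows. Neither window held TATAAA (13.6% of all windows) or TGACAG (19.2%). Among the 31 windows of the 26 members that had one, GGGCGG was in 22, CCAAT in 10, TATAAA in 3 and TGACAG in 2. A match is a description of the letters only.

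The libraries held 15168 cells, with 20484881 to 79429129 UMIs in each library. Depth did not divide by genotype alone: the median was 26572 to 28553 UMIs per cell in WT 1 to 4, 12720.5 in WT 5 and 9611.5 to 14895 in the 3 Meis1 cKO libraries. Pre-HE cells were few: WT 1 to 5 held 39, 18, 11, 87 and 16 of them, and the Meis1 cKO libraries held 29, 33 and 15. Barcodes found in more than 1 library numbered 33 of 15135. Meis1 itself was measured at the 3′ end, outside the deleted exon, so its UMIs do not check the deletion. Levels are given as CPM: the UMIs of a gene were summed over the cells of 1 type in 1 library and scaled to 1000000 UMIs of that sum. In EMP, Meis1 was 56.7 to 77.0 CPM in WT and 20.9 to 36.4 in Meis1 cKO, and in EHT it was 68.0 to 85.8 in WT and 55.5 to 70.9 in Meis1 cKO. It was not lower in every cell type: in pre-HE it was 12.9 to 51.4 in WT and 9.57 to 53.0 in Meis1 cKO. In aEC it was 0.881 to 1.48 in WT and 1.17 to 2.15 in Meis1 cKO. The endothelial markers Pecam1, Cdh5, Kdr, Tek and Emcn were all present in pre-HE, with a summed level of 3114 CPM (2877 to 3260 over 5 WT libraries) against 1819 in aEC.

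Because only transcript 3′ ends were counted, a gene's level is compared between cell types and not with the level of another gene. Cell types were named by the authors from clusters of the same expression values, so p-values between cell types are not independent of the clustering. A rise in CPM is a rise in the share of a cell's transcripts, and fewer other transcripts per cell cannot be told apart from more of the gene, so UMIs per cell stand beside some values.

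Pre-HE was where most of these genes peaked. Among the 10 cell types, the WT mean was highest in pre-HE for 25 of 37 members, in vEC_4 for 7, in aEC for 2 (Lama4, Col6a2), and once each in vEC_2 (Col15a1), EHT (Col11a2) and megakaryocytes (Col1a1). For 14 members the pre-HE value was the highest in each of the 5 WT libraries: Agrn, Col18a1, Col4a1, Col4a2, Col5a2, Fbln1, Fbln2, Fbn1, Fbn2, Fn1, Hspg2, Lama3, Nid1 and Sparc. All 5 elastic fibre genes and 12 of 15 basement membrane genes peaked in pre-HE, against 4 of 8 fibrillar chains and 2 of 7 other collagens. Lama3, Fbln2 and Col9a1 reached the minimum for members only through pre-HE, Col9a1 with 7 of its 106 UMIs there. The blood cell types lay at the other end: EMP was below 10% of the gene's highest mean for 34 of 37 members, myeloid cells for 32 and megakaryocytes for 27. The share of all genes that peak in pre-HE, or lie this low in blood cells, was not computed, so these counts describe the members only.

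**Figure D1:**
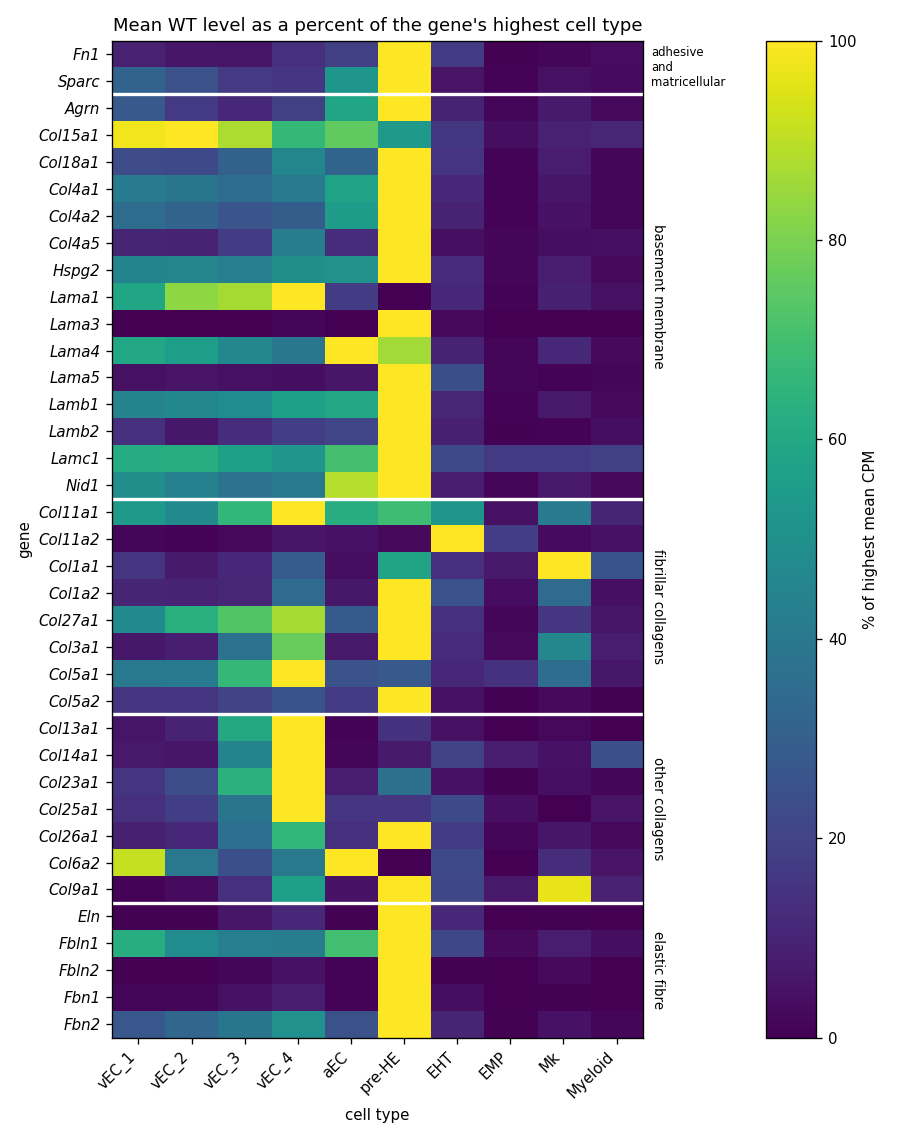
Heat map of the WT mean CPM of each of the 37 members (rows, grouped by role) in 10 cell types (columns), as a percent of that member's highest cell type. The pre-HE column is at 100% for 25 members, and EMP is below 10% for 34.

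Summed over the 37 members, matrix transcripts were 0.204% ± 0.014 of all UMIs in vEC (vEC_1 to vEC_4 together, SD, n = 5 WT libraries), 0.328% ± 0.0337 in aEC, 0.735% ± 0.0636 in pre-HE, 0.0794% ± 0.0219 in EHT and 0.00821% ± 0.00595 in EMP. The ranges of pre-HE (0.674% to 0.816%) and aEC (0.284% to 0.373%) did not overlap, nor did those of aEC and EHT (0.0587% to 0.113%). Measured in single cells thinned to 5000 UMIs each, a pre-HE cell had UMIs of 10.5 ± 0.927 members (mean over cells, then SD over 5 WT libraries), an aEC 6.85 ± 0.429, an EHT cell 2.82 ± 0.335 and a myeloid cell 0.579 ± 0.222. Thinning left out the 101 cells with fewer UMIs.

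The step from aEC to pre-HE asks how the matrix genes of arterial endothelium differ from those of the cells placed before hemogenic commitment. In WT, 18 of the 37 members had enough counts to be tested, and 14 were higher in pre-HE, 2 were lower and 2 did not pass (edgeR quasi-likelihood test with libraries as blocks, Benjamini-Hochberg adjusted p under 0.1 over 8143 genes). Of all genes tested, 21.1% were called higher and 21.1% lower, 42.1% in either direction. The median log2 fold change was 0.79 over the 18 members and 0.01 over all genes. A gene could be tested on its level in pre-HE alone, so these counts describe the tested members and not all 37.

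Of the adhesive and matricellular pair, Fn1, the fibronectin that integrins bind, rose most. Its pre-HE level was 1445, 1251, 1290.1, 1026 and 469.9 CPM in WT 1 to 5, against 183 to 266 in aEC. Every pre-HE library lay above every aEC library, with WT 5 lowest. The log2 fold change was 2.27 ± 0.12 (SE, adjusted p = 2.25e-19), and UMIs per cell went from 4.02 in aEC to 14.5 in pre-HE. In cells thinned to 5000 UMIs, Fn1 was seen in 92.8% of pre-HE cells, 53.0% of aEC (85.8% without thinning) and 1.24% of EMP, a blood cell type that gives a background and had a median of 46035.5 UMIs per cell before thinning. Sparc, a collagen-binding matricellular glycoprotein, was 2103, 1755, 1679, 1660.5 and 2375 CPM in pre-HE and 727 to 1200.3 in aEC. These ranges did not overlap either, and the log2 fold change was 0.82 ± 0.07 (adjusted p = 1.24e-12), a gain from 19.0 to 24.2 UMIs per cell.

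Type IV collagen and collagen XVIII rose together with perlecan. Col4a1 in pre-HE was 929, 817, 1407, 1086 and 1133 CPM in WT 1 to 5 against 527 to 767 in aEC. Col4a2 was 643, 584, 843, 686 and 624 CPM against 279 to 489. Each gene separated the cell types in all libraries, and the log2 fold changes were 0.65 ± 0.09 for Col4a1 and 0.75 ± 0.09 for Col4a2 (adjusted p = 6.94e-08 and 6.95e-09). Col18a1, whose collagen XVIII carries endostatin at its end, was 842, 626, 998, 826 and 779 CPM against 237 to 311, with a log2 fold change of 1.51 ± 0.09 (adjusted p = 2.78e-17). Hspg2 was 282, 257, 266, 235 and 303 CPM against 106 to 163, with a log2 fold change of 0.82 ± 0.12 (adjusted p = 1.44e-07). All libraries of pre-HE were above all libraries of aEC for both genes.

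The laminins and their linkers divided. Lamb1, the beta1 chain shared by most endothelial laminins of the embryo, was 142, 168, 162, 150.2 and 70.8 CPM in pre-HE and 67.4 to 109 in aEC, and rose by 0.60 ± 0.14 on the log2 scale (adjusted p = 0.000769). WT 5 lay inside the aEC range and the other 4 above it. Agrn rose from 45.8 to 84.8 CPM in aEC to 82.9, 79.4, 136, 120.2 and 83.7 in pre-HE, a log2 fold change of 0.57 ± 0.15 (adjusted p = 0.00223), with overlapping ranges. Nid1, which ties laminin to type IV collagen, was 245, 224, 279, 242 and 206 CPM in pre-HE and 183 to 242 in aEC; its log2 fold change was 0.04 ± 0.11 (adjusted p = 0.802) and its UMIs per cell were 4.15 in aEC and 3.10 in pre-HE. Lamc1, the gamma1 chain, had a log2 fold change of 0.26 ± 0.19 (adjusted p = 0.286). The alpha4 chain gene Lama4, typical of endothelium, was lower in pre-HE by −0.39 ± 0.16 (adjusted p = 0.0529), a call that was lost without WT 1 (and also without WT 4). Col15a1, of collagen XV, was lower by −1.16 ± 0.30 (adjusted p = 0.00201); WT 1 to 4 held 7.37 to 14.2 CPM in pre-HE and WT 5 held 64.4, above the 16.5 to 40.3 of aEC.

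Chains that were rare in aEC were found in pre-HE. Lama3 and Fbln2 reached the 100-count minimum for members only through the cell type where they peak: 80 of the 112 UMIs of Lama3 and 75 of the 153 of Fbln2 were in pre-HE over all libraries. Their peaks are therefore partly set by how members were chosen. Lama3, the alpha3 chain better known from epithelial basement membranes, was 46.1, 46.7, 32.4, 24.5 and 6.44 CPM in WT 1 to 5 of pre-HE and between 0 and 0.148 in aEC. It had 72 UMIs in pre-HE against 1 in aEC, a ratio of CPM of 514 with a 95% counting interval of 89.4 to 20597. Thinned, it was seen in 13.7% of pre-HE cells and in 0 of 886 aEC (exact upper bound 0.415%). Lama5 (53 against 24 UMIs) had a ratio of 15.8 (9.57 to 26.7), Col4a5 (54 against 43 UMIs) a ratio of 8.97 (5.90 to 13.7) and Lamb2 (40 against 66 UMIs) a ratio of 4.33 (2.85 to 6.51). Lama5 and Col4a5 were at 0 in WT 5 and at 22.9 to 28.0 CPM in the other 4 pre-HE libraries. Lama1, the alpha1 chain of early embryonic laminin, went the other way, with 0 UMIs in pre-HE and 27 in aEC, where it was 0.630 to 3.52 CPM. These 5 chains were too low for the filter, and only counting error is in the intervals.

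The elastic fibre genes held the largest difference among the 18 tested members. Fbn1, fibrillin-1 of the microfibrils, was 168, 163, 285, 161 and 90.1 CPM in pre-HE of WT 1 to 5 and 1.18 to 2.70 in aEC. Every pre-HE library was far above every aEC library, the log2 fold change was 6.40 ± 0.23 (adjusted p = 8.19e-26), and thinned cells with a UMI were 54.8% of pre-HE, 1.14% of aEC and 4.49% of EHT (3.01% of aEC without thinning). Fbn2, the fibrillin of early development, was 243, 238, 156, 208 and 109 CPM against 40.5 to 51.2, with a log2 fold change of 2.02 ± 0.15 (adjusted p = 5.04e-15). Fbln1, a fibulin of elastic fibres and basement membranes, was 127, 112, 77.8, 97.3 and 90.1 CPM against 41.1 to 91.7, with overlapping ranges and a log2 fold change of 0.50 ± 0.15 (adjusted p = 0.00607) that was not called without WT 4. Fbln2 and Eln, which were too low for the filter, had 62 against 7 UMIs (ratio 63.3, interval 29.0 to 164) and 53 against 1 (ratio 379, interval 65.1 to 15235). Eln was uneven, at 62.7, 9.34, 0, 11.1 and 19.3 CPM in WT 1 to 5.

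Among the fibrillar chains, only Col5a2 (collagen V alpha2, which sets fibril diameter with collagen I) reached the filter. It was 251, 261, 207, 158 and 51.5 CPM in pre-HE and 24.3 to 45.4 in aEC, with no overlap and a log2 fold change of 2.39 ± 0.15 (adjusted p = 8.65e-17). Col3a1 and Col1a2, the classic chains of fibroblasts, were low in both: 16.1 ± 9.25 CPM in pre-HE against 1.10 ± 1.14 in aEC, and 8.58 ± 5.63 against 0.537 ± 0.384 (SD, n = 5). Col1a1 was 1.45 ± 2.83 in pre-HE. Of the other collagens, the transmembrane collagen gene Col23a1 was 18.7 to 38.9 CPM in pre-HE and 2.64 to 10.1 in aEC, and Col26a1 was 18.4 to 32.7 against 1.83 to 4.41; the log2 fold changes were 2.23 ± 0.31 and 2.43 ± 0.35.

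Markers of other cell types moved with this step. The 9 smooth muscle and pericyte markers summed to 16.7 to 29.5 CPM in aEC and to 187 to 889 in WT pre-HE, with Myh11, Cspg4 and Kcnj8 at 0 in pre-HE and 6 of 9 detected. The 13 mesenchymal markers summed to 3.59 to 6.40 CPM in aEC and 19.3 to 55.3 in pre-HE, with Pdgfrb, Twist2, Tbx18, Tcf21 and Lum at 0. The 9 epithelial and mesothelial markers summed to 0.587 to 1.78 in aEC and 13.0 to 86.2 in pre-HE, from Krt8 and Krt18 alone. The part of these markers, of the smaller UMI totals of pre-HE cells (median 12884 against 18343 in aEC) and of the authors' integration in the differences was not tested.

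The step from pre-HE to EHT, where endothelial cells round up and take on a blood identity, had lower shares of matrix transcripts in every role. All 18 members tested were lower in EHT, where 30.0% of the 8467 genes tested were called lower and 61.6% in either direction. The median log2 fold change was −3.14 over the members and 0.04 over all genes. As before, a member could be tested on its pre-HE level alone. Markers of other cell types moved with this step: the 5 endothelial markers went from 2877 to 3260 CPM in pre-HE to 249 to 567 in EHT, with 5 of 5 called lower (median log2 fold change −2.98), and the smooth muscle markers from 187 to 889 to 86.1 to 199, with 4 of 4 tested called lower. The 5 myeloid markers went from 0 to 4.67 CPM up to 308 to 438, with 4 of 4 tested called higher. Their part in the members' differences was not tested. Fbn1 fell most, by 4.61 ± 0.22 on the log2 scale, to 2.41 to 9.77 CPM. Col5a2 fell by 4.43 ± 0.22 and Sparc by 4.25 ± 0.14 (adjusted p = 2.4e-22): Sparc was 59.8, 60.1, 93.6, 130.2 and 164 CPM in EHT of WT 1 to 5, below every endothelial library. Among basement membrane genes, Nid1 fell by 3.64 ± 0.19, Col4a2 by 3.36 ± 0.12, Agrn by 3.30 ± 0.21, Col4a1 by 3.11 ± 0.12, Hspg2 by 3.05 ± 0.18 and Col18a1 by 2.66 ± 0.12. Lamc1 fell by 2.12 ± 0.23 and Col15a1 by 1.34 ± 0.45 (adjusted p = 0.0109), the latter not called without WT 5.

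Fn1 fell by less than Sparc on the way to EHT. The fall was by 2.45 ± 0.14 on the log2 scale (adjusted p = 5.5e-16) to 176, 163, 175, 258 and 173 CPM, values that overlap those in aEC (207, 183, 191, 266 and 183), and 53.0% of thinned EHT cells had an Fn1 UMI, as 53.0% of aEC did. In UMIs per cell, Fn1 was 6.13 in EHT and 4.02 in aEC. Sparc, in contrast, was 3.03 UMIs per cell in EHT and 19.0 in aEC. Col11a2 was alone in peaking in EHT, at 7.71, 8.77, 5.02, 4.69 and 4.89 CPM, against 0 to 0.79 in pre-HE. It had 57 UMIs in EHT and 1 in pre-HE (ratio 14.3, interval 2.47 to 576). Over all libraries 61 of its 153 UMIs were in EHT, without which it would not have reached the minimum for members, as was also so of Col25a1, Col6a2 and Col9a1 in the cell types where they peak.

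**Figure D2:**
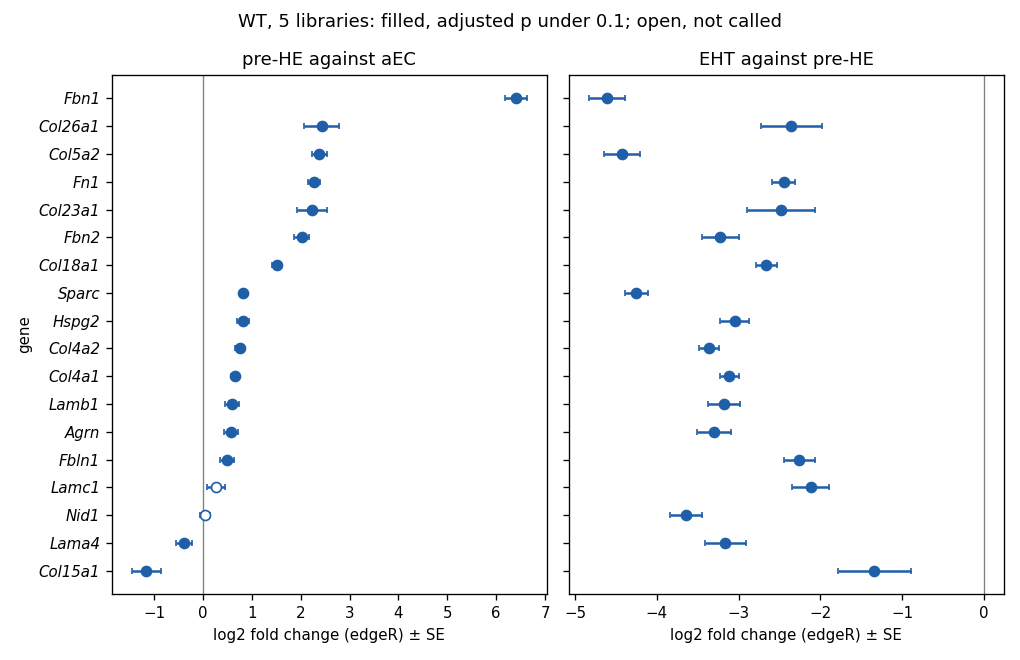
Log2 fold changes with SE (edgeR, 5 WT libraries) of the 18 members tested for pre-HE against aEC and for EHT against pre-HE; filled symbols passed adjusted p under 0.1. In pre-HE against aEC 14 symbols lie to the higher side as calls and 2 to the lower side, and in EHT against pre-HE all 18 lie to the lower side.

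Arterial and venous endothelium carried different members of the same families. Against vEC as a whole, aEC had 13 members higher, 9 lower and 5 not called of 27 tested, where 29.2% of 11345 genes were called higher, 30.5% lower and 59.7% in either direction. The basement membrane genes leaned to aEC: Agrn was 45.8 to 84.8 CPM in aEC and 15.9 to 22.8 in vEC (log2 fold change 1.73 ± 0.08, adjusted p = 2.07e-15), Nid1 was 183 to 242 against 95.4 to 113 (1.06 ± 0.05), and Lama4 was higher by 1.02 ± 0.08. Smaller differences in the same direction were 0.94 ± 0.25 for Lamb2, 0.84 ± 0.05 for Col4a2, 0.61 ± 0.04 for Col4a1, 0.37 ± 0.07 for Lamb1, 0.27 ± 0.10 for Lamc1, 0.26 ± 0.05 for Col18a1 and 0.21 ± 0.05 for Hspg2. Fn1 was 183 to 266 CPM in aEC and 73.6 to 107 in vEC, and Sparc 727 to 1200.3 against 345 to 618. Neither pair of ranges overlapped, with log2 fold changes of 1.32 ± 0.05 and 1.22 ± 0.05, and Fbln1 was higher by 0.53 ± 0.07.

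Venous endothelium was the higher for most of the less common collagens. Col13a1, a transmembrane collagen of adhesion sites, was lower in aEC by −4.69 ± 0.30 (adjusted p = 2e-12), Col23a1 by −2.66 ± 0.16, Lama1 by −2.11 ± 0.27, Col3a1 by −1.75 ± 0.36, Fbn1 by −1.59 ± 0.24, Col5a1 by −1.15 ± 0.27, Col27a1 by −1.08 ± 0.21, Col26a1 by −0.54 ± 0.20 and Fbn2 by −0.52 ± 0.07. Col5a2 (0.02 ± 0.08), Col15a1 (−0.15 ± 0.10), Col4a5 (−0.29 ± 0.23), Col11a1 (0.25 ± 0.24) and Lama5 (0.48 ± 0.37) were not called. Fbn1, Col23a1, Col26a1 and Fbn2 were thus lower in aEC than in vEC and higher in pre-HE than in aEC; these comparisons share the aEC libraries. In pre-HE, Col23a1 at 28.6 ± 9.47 CPM stood below its vEC_4 level of 77.4 ± 7.75, whereas Fbn1 at 173 ± 70.3 stood above its vEC_4 level of 14.8 ± 3.37 (SD, n = 5 WT libraries).

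**Figure D3:**
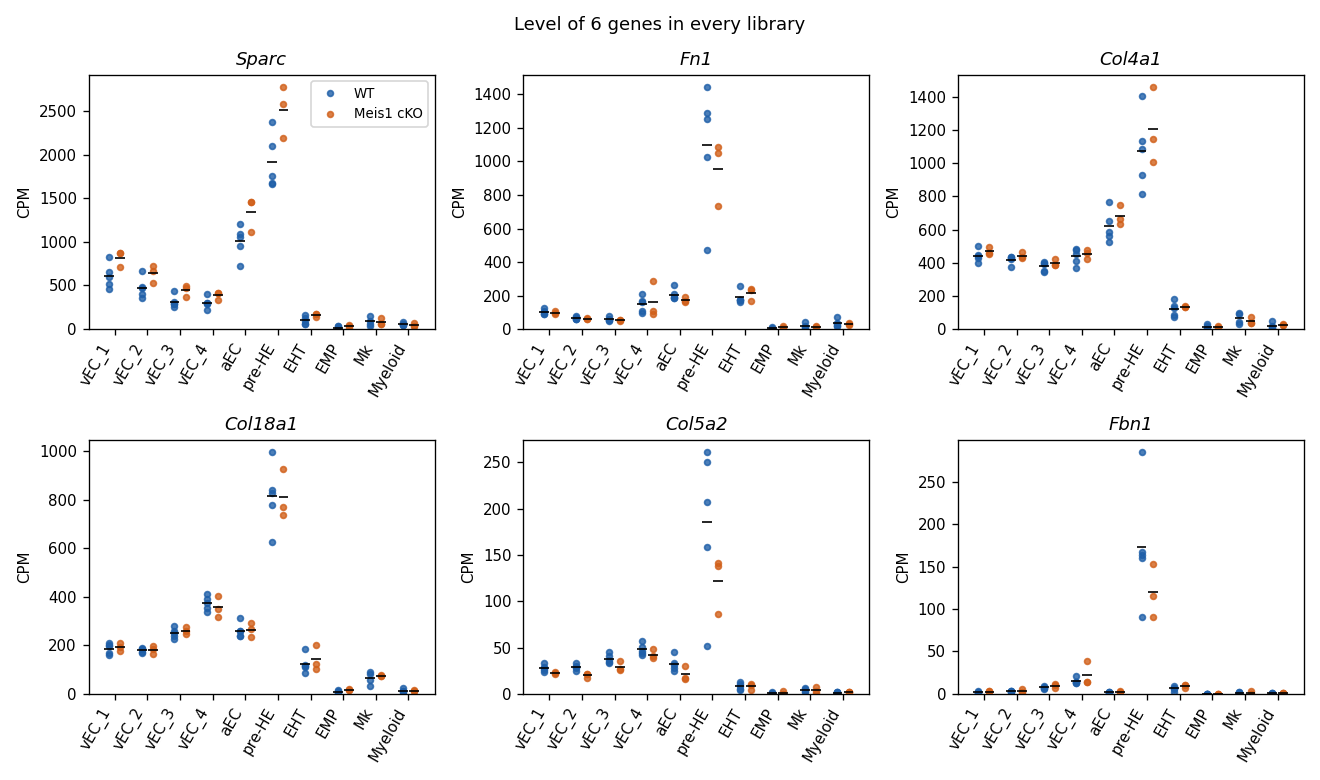
CPM of Sparc, Fn1, Col4a1, Col18a1, Col5a2 and Fbn1 in each library and cell type, WT in blue and Meis1 cKO in orange, with a black line at each mean. For each gene the WT mean of pre-HE stands highest, and EMP, megakaryocytes and myeloid cells lie lowest or near the lowest.

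The 4 venous clusters were not alike in their matrix genes. All 27 members tested were called among them (edgeR, 3 contrasts together), where 72.5% of 11058 genes were called, so that a call here is common. Means were highest in vEC_4 for 18 of the 27, in vEC_1 for 7 and in vEC_2 for 2, and in each of the 5 libraries for 8 of the vEC_4 members and 5 of the vEC_1 members. Marker sums of other cell types also differed between the ends: the 13 mesenchymal markers summed to 28.0 to 43.5 CPM in vEC_4 and 3.97 to 8.17 in vEC_1 (3 of 4 tested were called among the clusters), the 9 smooth muscle and pericyte markers to 20.9 to 45.4 and 8.20 to 17.1 (5 of 5), and the 9 epithelial and mesothelial markers to 2.79 to 6.04 and 0.793 to 2.54 (1 of 1). Their part in the order was not tested. Col13a1 was 1.69 ± 0.779, 2.75 ± 1.20, 17.6 ± 5.59 and 29.2 ± 9.36 CPM in vEC_1 to vEC_4 (SD, n = 5), a log2 range of 3.87. Col23a1 was 11.8 ± 2.38, 18.2 ± 3.86, 49.8 ± 4.09 and 77.4 ± 7.75, and Fbn1 was 2.05 ± 0.961, 3.09 ± 0.414, 7.61 ± 1.03 and 14.8 ± 3.37. The order vEC_1, vEC_2, vEC_3, vEC_4 held for the means of all 3 genes, though vEC_1 and vEC_2 of Col13a1 lay within their SDs.

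The opposite order was that of Sparc, at 611 ± 143, 476 ± 116, 316 ± 72.8 and 303 ± 66.3 CPM in vEC_1 to vEC_4 (log2 range 1.09). Its vEC_3 and vEC_4 values lay within their SDs. Agrn (27.9 ± 5.27 in vEC_1, 11.6 ± 1.82 in vEC_3), Nid1 (118 ± 11.2 against 90.7 ± 10.8), Col4a2 and Fbln1 also had their highest value in vEC_1 in every library. Fn1 had a high level at both ends, 102 ± 15.7 in vEC_1 and 149 ± 46.6 in vEC_4, with 66.1 ± 8.29 and 61.0 ± 12.5 between. Hspg2 was nearly even, from 116 ± 12.3 in vEC_3 to 132 ± 11.1 in vEC_4, a log2 range of 0.20.

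**Figure D4:**
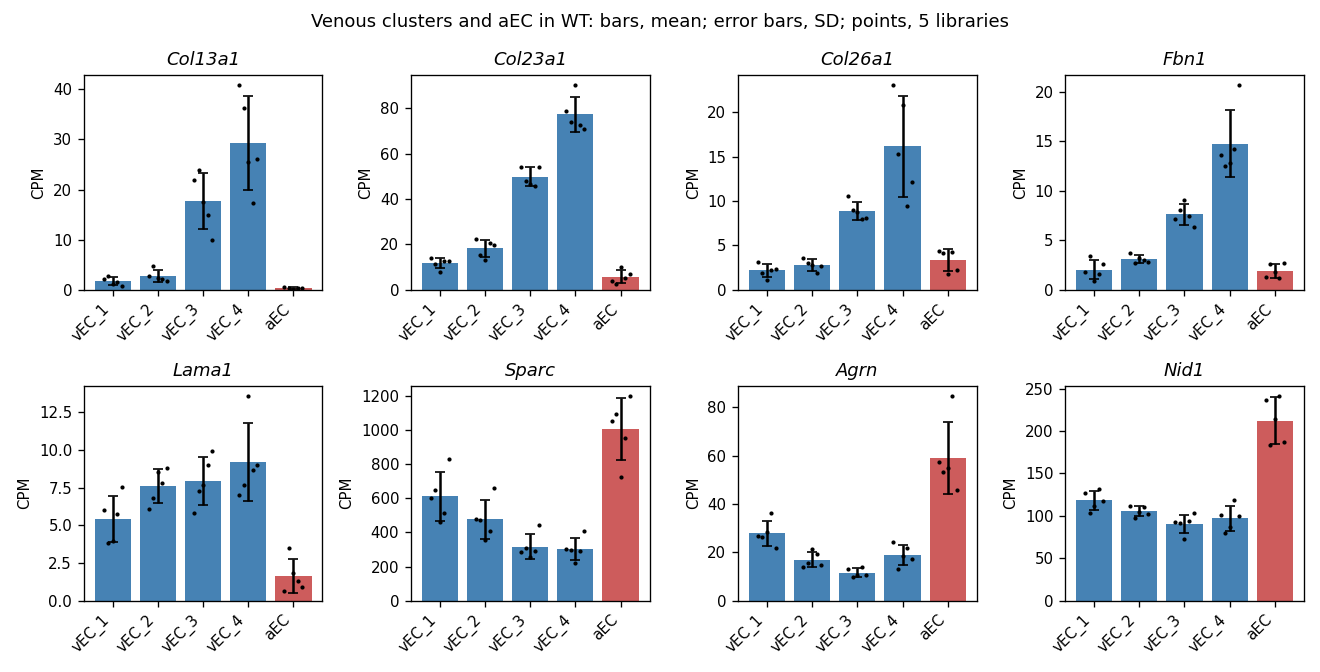
Mean CPM (bars, with SD) and the 5 WT library values (points) of Col13a1, Col23a1, Col26a1, Fbn1, Lama1, Sparc, Agrn and Nid1 in vEC_1 to vEC_4 and aEC. Col13a1, Col23a1, Col26a1 and Fbn1 step up from vEC_1 to vEC_4, whereas Sparc steps down from 611 in vEC_1 to 303 in vEC_4 and is highest in aEC.

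In blood cells the members were at low levels. Myeloid cells exceeded EMP in 6 of 10 members tested, with none lower, where 32.1% of 10267 genes were called higher and 61.1% in either direction. Fn1, which macrophages also make, was 34.8 ± 21.4 CPM in myeloid cells and 5.33 ± 4.24 in EMP (SD, n = 5; log2 fold change 2.40 ± 0.33, adjusted p = 0.000107), Sparc was 56.4 ± 17.1 against 17.6 ± 16.4 (1.76 ± 0.29) and Col15a1 4.38 ± 1.36 against 1.51 ± 1.08 (1.56 ± 0.32). Hspg2 (0.87 ± 0.26), Col4a1 (0.89 ± 0.40) and Col4a2 (0.87 ± 0.41) were the other calls, the last 2 lost without WT 1, without WT 2 and without WT 5. Megakaryocytes exceeded EMP in 10 of 11 members tested over the 4 WT libraries with at least 10 megakaryocytes, where 29.5% of 9370 genes were called higher and 58.9% in either direction. Col18a1 was 64.3 ± 26.6 CPM against 8.93 ± 4.40 (2.86 ± 0.29) and Sparc, which platelets store, was 88.2 ± 49.8 against 17.6 ± 16.4 (2.22 ± 0.25). When each cell was thinned to 5000 UMIs, 1 member was called in each of these comparisons, partly because members fell below the filter and were not tested.

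Endothelial transcripts moved with both. The 5 endothelial markers summed to 255 to 450 CPM in megakaryocytes, 36.1 to 123 in EMP and 39.6 to 185.0 in myeloid cells, against 1737 in vEC, and 5 of 5 were called higher in megakaryocytes and 2 of 5 in myeloid cells. Their part in the member differences was not tested.

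The Meis1 cKO libraries were compared with WT within each cell type to ask whether deletion of Meis1 moved these genes. By the test over all genes no member was called in aEC (16 tested, 3 at an unadjusted p under 0.05), pre-HE (15 tested, 1), EHT (17 tested, 2), vEC (30 tested, 5) or myeloid cells (19 tested, 0), where 0%, 0.489%, 0.127%, 0.0164% and 3.26% of all genes were called. Those shares are at the adjusted threshold. The share of all genes at the unadjusted level is not given here, so the counts at that level describe the members only. Log2 fold changes of the tested members spanned −0.57 to 0.45 in aEC, −0.63 to 0.44 in pre-HE, −0.17 to 0.81 in EHT and −0.35 to 0.72 in vEC. DESeq2 called 1 member, Col5a2 in vEC (adjusted p = 0.0767), and none in the other 4 cell types. The summed share of the 37 members in pre-HE was 0.755% ± 0.109 in Meis1 cKO (SD, n = 3) and 0.735% ± 0.0636 in WT (n = 5).

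Sparc, singled out with Col5a2 after the values were seen, had a higher mean in Meis1 cKO in 4 cell types. In pre-HE it was 2579, 2776 and 2193 CPM in Meis1 cKO against 1660.5 to 2375 in WT, in aEC 1462, 1457 and 1113 against 727 to 1200.3, in vEC 639.7, 692 and 497 against 345 to 618, and in EHT 170.3, 177 and 143 against 59.8 to 164. The groups overlapped in each of the 4, and the log2 fold changes were 0.44 ± 0.17, 0.44 ± 0.15, 0.48 ± 0.18 and 0.70 ± 0.28, with adjusted p of 0.53, 0.366, 0.247 and 0.432. WT 5, the WT library with a depth like that of the Meis1 cKO libraries, had the highest WT value each time. Without WT 5 the difference was called in aEC (0.52, adjusted p = 0.0535), in vEC (0.64, adjusted p = 0.00689) and in EHT (0.96, adjusted p = 0.0336). With WT 5 as the only WT library the log2 fold change was 0.14 in aEC, 0.12 in pre-HE, −0.038 in vEC and −0.026 in EHT, none of them called.

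Col5a2 had the opposite sign. It was 139, 86.1 and 141 CPM in Meis1 cKO pre-HE and 251, 261, 207, 158 and 51.5 in WT, and 26.0, 27.8 and 23.0 in Meis1 cKO vEC against 29.1 to 39.1 in WT, where the groups did not overlap. The log2 fold changes were −0.63 ± 0.33 (adjusted p = 0.734) and −0.35 ± 0.09 (adjusted p = 0.208). Here WT 5 was the lowest WT library in both cell types, and with it as the only WT library the value in pre-HE turned to 1.23. The lower value in vEC kept its sign in that setting, and without WT 5 it was called (−0.39, adjusted p = 0.0246). In aEC the log2 fold change of Col5a2 was −0.57, not called, and also kept its sign with WT 5 as the only WT library. Fn1 in pre-HE was 1084, 1048 and 734 CPM in Meis1 cKO (log2 fold change −0.15 ± 0.25) and Fbn1 was 153, 90.9 and 115 (−0.46 ± 0.28), both within the WT range. Apart from WT 5, depth and genotype cannot be told apart.

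**Figure D5:**
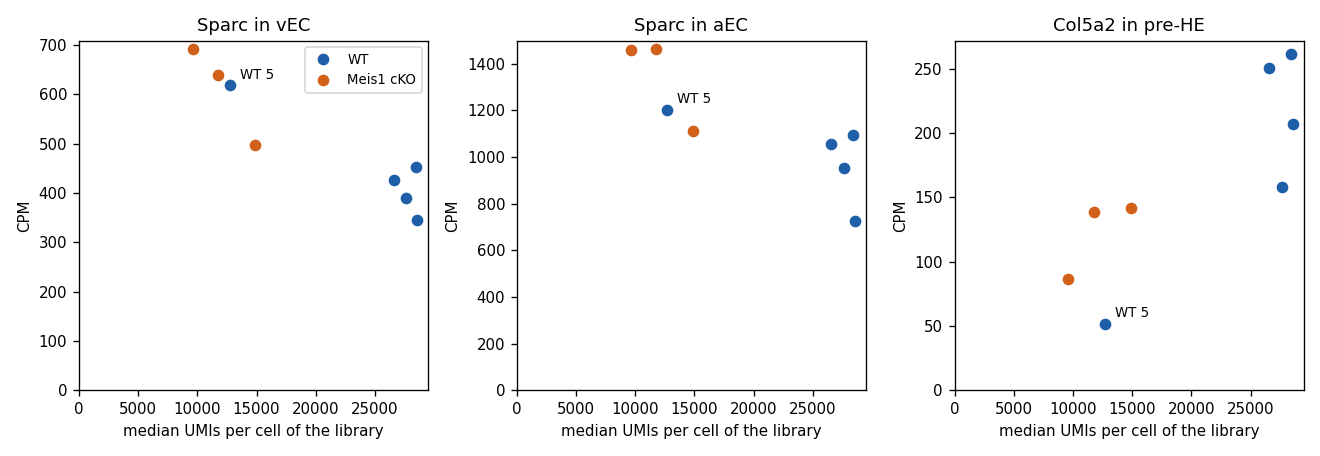
CPM of Sparc in vEC, Sparc in aEC and Col5a2 in pre-HE against the median UMIs per cell of each library, WT in blue, Meis1 cKO in orange and WT 5 marked. WT 5, at 12720.5 UMIs per cell, lies beside the Meis1 cKO libraries on the depth axis, with the highest WT value of Sparc and the lowest WT value of Col5a2.

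The steps along the path were also tested for a difference by genotype. From aEC to pre-HE no member of 27 tested was called (1 at an unadjusted p under 0.05), where 0.0527% of 9489 genes were, and from pre-HE to EHT no member of 24 (2 at that level), where 0.0374% of 8025 genes were. Again both shares are at the adjusted threshold, and none is given here for the unadjusted level. Fbn2 had the lowest unadjusted p in the first, with a difference of −0.84 ± 0.27 (adjusted p = 0.720): its pre-HE level was 213, 158 and 35.4 CPM in Meis1 cKO. The smooth muscle markers, which summed to 187 to 889 CPM in WT pre-HE, summed to 1123 to 2262 in Meis1 cKO pre-HE, and Acta2 (log2 fold change 2.01, adjusted p = 0.0191), Myl9 (1.40, adjusted p = 0.0154) and Tagln (1.45, adjusted p = 0.0840) were called higher there. Beside them, Eln was 19.8, 9.57 and 0 CPM in Meis1 cKO pre-HE and 0 to 62.7 in WT.

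The machinery around these genes moved in both directions. From aEC to pre-HE, 21.1% of all genes were called higher and 21.1% lower, beside which the counts of each list are to be read. Of the enzymes and chaperones that fold, trim and crosslink collagen, 12 were tested from aEC to pre-HE, with 8 higher and 2 lower: the prolyl hydroxylase P4ha2 rose by 1.42 on the log2 scale and the procollagen protease Bmp1 by 0.95, whereas P4ha1 fell by 0.41 and the collagen chaperone Serpinh1 fell by 0.40. Of 11 matrix receptors tested, 5 were higher and 4 lower, with the laminin receptors Bcam (3.95) and Dag1 (1.40) and the fibronectin receptor chain Itga5 (1.21) among the first and the integrin chain Itga4 (−2.29) among the second. Among 10 other matrix genes 7 were higher and 2 lower, led by the microfibril-bound latent TGF-β binding proteins Ltbp1 (6.28) and Ltbp4 (6.14), with Nid2 (−1.63) and Mmrn1 (−2.56) lower. Among 9 proteases and inhibitors 4 were higher and 1 lower, with Htra1 (4.98), Timp2 (4.28), Mmp2 (2.75) and Timp3 (−1.41).

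In EHT against pre-HE, where 31.6% of all genes were called higher and 30.0% lower, most tested genes of these lists were lower. All 11 processing genes and all 8 proteases and inhibitors tested were lower (Htra1, −7.17), as were 9 of 10 other matrix genes (Ltbp4, −6.53; Sparcl1, −5.95). Of 11 receptors 7 were lower (Bcam, −5.66) and 3 higher: Itga4 (3.20), Itgb3 (2.41) and Itga2b (1.58), chains of the fibronectin-binding and platelet integrins. Between aEC and vEC, where 29.2% of all genes were called higher in aEC and 30.5% lower, 9 of 14 processing genes were higher in aEC and none lower, with the lysyl hydroxylase Plod1 at 1.60. For receptors the counts were 8 higher and 4 lower of 13 (Itga4, 3.05; Itga1, 2.20; Itga8, −2.35), for other matrix genes 8 and 2 of 11 (Nid2, 1.93; Ltbp1, −1.18) and for proteases and inhibitors 6 and 5 of 12 (Htra1, 2.41; Timp2, −1.83).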

How the data were processed

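The 37 genes were measured in 5 WT and 3 Meis1 cKO CITE-seq libraries. The authors deposited whole-number UMI counts per gene and cell with a table of their cell types. Per the labels and the submitters' processing notes, libraries were 10x Chromium 3′ v3, processed with Cell Ranger 3.0.2 on mm10; the annotation version is not given in the sources used here. The cells deposited have at least 2001 genes each. The authors integrated the libraries, clustered and named the cells; these names were used as deposited.

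The deposited counts were summed per library and cell type (sums of at least 10 cells) and fitted by edgeR 4.0.16 under R 4.3.3, with TMM scaling, filterByExpr, quasi-likelihood F test, Benjamini-Hochberg adjustment over all genes, threshold adjusted p under 0.1, with libraries as blocks in the WT steps and no block between genotypes. SE is the log2 fold change over the root of F. The log2 ranges among vEC clusters come from a joint test and are given without an SE. Counting intervals are exact at 95%, with a floor of 3 counts. Nothing in the labels says that pools of a group were separate cultures or litters, so p-values measure the spread between these pools. The main tool was checked on simulated data. Alternatives were DESeq2 1.42.0, another scaling, no filter, thinning each cell to 5000 UMIs, removal of the 83 doublets (0.547%) called by Scrublet (scanpy 1.11.5), a depth covariate, WT 5 as the only WT library, the replicate number as a block and leaving out each library. Python 3.11.15 was used for levels. Members with at least 100 CPM in a WT cell type (13) are given by library and the others by range, count and example. Members, lists and tests were chosen with earlier results of these data known. Promoter windows come from RefSeq (GRCm38.p6) and matched 26 of 37 members. The antibody tag counts of 6 surface markers were not used here.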

Additional observations from a re-analysis of the deposited data

Results flagged for a closer look

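Of 130 values of the 13 members given by library, each the set of WT libraries in 1 cell type, 12 (9.23%) held a library far from the others by Dixon's gap test at the 95% level, where chance gives about 1 in 20. WT 5 was the distant library in 6 and WT 4 in 4. Among the 6 is Fbn1 in EMP, where the other libraries were at 0, so that any count would be flagged. In WT 5, Lamb1 in pre-HE was 70.8 CPM against 142 to 168 in the others, Sparc in vEC_3 was 442 against 257 to 309, Fbn1 in vEC_4 was 20.7 against 12.5 to 14.2 and in EMP 0.371 against 0, and Fbln1 was 14.1 against 5.45 to 5.79 in megakaryocytes and 7.89 against 2.38 to 3.28 in myeloid cells. In WT 4, Fn1 was 266 CPM against 183 to 207 in aEC and 258 against 163 to 176 in EHT, and in EMP Agrn was 4.43 against 0.699 to 1.45 and Nid1 10.5 against 0.661 to 2.97. Col4a1 in vEC_2 of WT 2 was 377 against 421 to 434, and Hspg2 in vEC_1 of WT 3 was 94.0 against 124 to 132. WT 5 is the shallowest WT library and WT 4 the one with the most cells. The part of depth was not tested.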

How the results depend on the processing

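Across the steps between WT cell types, 1236 alternative values were computed for 99 member differences: 1198 kept their direction and side of the threshold, 38 kept the direction but were no longer called, and none reversed. Differences that a setting left untested are not among these values. Thinning to 5000 UMIs gave values for only 66 of the 99, with 60 unchanged and 6 no longer called. The 27 differences among vEC clusters are ranges without a sign, so for them a reversal was not possible. The number of members called moved by more than 1.5 times in the following cases. The share of all genes called under each of these settings is not given here, so the counts describe the members only. Without the filter on low counts, 26 were called from aEC to pre-HE, 28 from pre-HE to EHT, 19 in megakaryocytes and 13 in myeloid cells against EMP, because more members were tested. With sums of at least 20 cells, chosen after seeing the data, 25 were called from aEC to pre-HE. In both steps with pre-HE this setting kept only WT 1 and WT 4, which held 39 and 87 pre-HE cells. Thinning left 1 in megakaryocytes and 1 in myeloid cells, partly because members fell below the filter, and myeloid cells had 3 with no replicate block. Leaving out 1 library ended the calls named in the report and, in addition, those of Lamc1 in aEC against vEC (without WT 1, without WT 4), Col26a1 there (without WT 1), Col11a1 among vEC clusters (without WT 2) and Fbln1 in megakaryocytes (without WT 5).

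Between genotypes, where no member was called, the replicate block (WT and Meis1 cKO libraries 1 to 3) called 4 members in aEC, 2 in pre-HE, 4 in EHT, 7 in vEC and 6 in myeloid cells. The same libraries without the block, chosen after seeing the data, gave 1, 1, 2, 5 and 7. The share of all genes called is not given here for these or the following settings, so their counts describe the members only. Same-numbered libraries did not all deviate together. Their correlations were −0.00444, 0.197 and 0.139 in aEC and −0.0885, 0.218 and 0.256 in vEC, with 1 or more pairs at 0.1 or below in each cell type. These values cannot tell whether some of the pairs were processed together. This block also leaves out WT 4 and WT 5. Leaving out 1 library gave 0 to 1 calls in aEC, 0 to 1 in EHT, 0 to 5 in vEC and 0 to 2 in myeloid cells, the highest without WT 5. DESeq2 called 1 in vEC, no filter 1 in EHT (Sparc), and WT 5 as the only WT library 1 in myeloid cells. With depth as a covariate and with WT 5 as the only WT library, the log2 fold change reversed to 1.23 and 1.23 for Col5a2, 0.85 and 1.06 for Fn1 and 0.57 and 0.44 for Fbn1 in pre-HE, and to −0.029 and −0.026 in EHT and −0.11 and −0.038 in vEC for Sparc; the cause was not tested. The number of cells limits pre-HE, where 11 to 87 cells per WT library left 18 of 37 members testable.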

Other observations

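The head-to-head genes Col4a1 and Col4a2 differed between cell types and libraries in their ratio, which is read here between libraries and not as which gene is higher. Col4a1 had 2.00 ± 0.192 UMIs for each UMI of Col4a2 in vEC (SD, n = 5 WT libraries), 1.72 ± 0.286 in aEC and 1.58 ± 0.169 in pre-HE. In pre-HE the ratio was 1.44, 1.40, 1.67, 1.58 and 1.81 in WT 1 to 5 and 2.30, 2.13 and 2.15 in the Meis1 cKO libraries, and the groups did not overlap. The mean was higher in Meis1 cKO in 10 of 10 cell types, without overlap in 2. The cell types come from the same libraries, so these are not independent observations. In megakaryocytes, the other type without overlap, the highest WT ratio was 2.28 and the lowest Meis1 cKO ratio 2.35. The Meis1 cKO megakaryocytes held 55 Col4a2 UMIs. In EMP the direction rested on Meis1 cKO 1 (9.0, against 1.94 and 1.79 in the other 2): without it the mean was 1.86 in Meis1 cKO and 2.37 in WT. In the other 9 cell types it held without each library in turn. WT 5 was the highest WT library in vEC (2.26), aEC (2.10), pre-HE (1.81), EHT (2.17) and myeloid cells (2.42), and the part of depth was not tested. The pair was chosen for its gene arrangement and the ratio was looked at without a test. Of the other head-to-head pairs, Col4a3 (7 UMIs), Col4a4 (46) and Col4a6 (90) were below the count minimum, and Col4a5 was above it.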
